A study of Capra hircus with 72 samples.

Results

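Ribosomal protein genes were examined in 4 brain regions of goats (Capra hircus) that had breathed room air or air with raised CO2. The genes were taken by name: every row of the count table whose symbol is RPL or RPS followed by a number, or RPLP0, RPLP1, RPLP2 or RPSA. This gave 37 genes of 21343. All libraries came from female animals and from the end of a 14-day period. The controls breathed room air, the mild group air with 6% CO2 throughout, and the moderate group 6% for the first 7 days and 8% for the other 7, so that both treated groups were in chronic hypercapnia. Sampled were the medial prefrontal cortex (mPFC) and 3 brainstem regions of the breathing network: the retrotrapezoid nucleus (RTN), the ventral respiratory column (VRC) and the nucleus of the solitary tract (NTS). Each region and condition has 6 libraries, 72 in 12 groups, and the series description gives 6 animals per condition. The labels give neither breed, age nor strain, and they do not say which libraries came from the same animal, so the p-values measure the spread between libraries.

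A ribosome consists of a small subunit, which reads the messenger RNA, and a large subunit, which joins amino acids. Each subunit holds ribosomal RNA and many proteins that are needed in nearly equal amounts, and the stalk of the large subunit recruits translation factors. The messenger RNAs of these proteins begin with a terminal oligopyrimidine tract, through which mTORC1 and the RNA-binding protein LARP1 control their translation and stability, so their levels often move together.

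The 37 genes comprise 17 proteins of the small subunit, 14 of the large subunit, 2 of the stalk (RPLP0 and RPLP2) and 4 paralogues (RPL3L, RPL10L, RPL26L1 and RPS27L). They cover 33 of the 79 proteins listed for the animal ribosome. RPLP1, RPL5, RPL11, RPS19, RPL3, RPL10, RPL39 and RPS27 were not matched by symbol and were not analysed here, and 6643 genes of the table carry no symbol. The members lie on 23 chromosomes or scaffolds, with at most 5 on any of them. Their gene models are short, with a median length of 498 bases against 1515 over all genes. Coordinates are not given because the deposited span was shorter than the deposited length for 36 of the 37. How reads shared with near-identical copies such as pseudogenes were counted is not stated, so the level of any single member is uncertain.

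The libraries held between 12.84 and 31.88 M counts, and 36 of the 37 members passed the filter on low counts in every fit. RPL10L, the testis paralogue of RPL10, did not pass: it had 3 counts in 2 libraries. RPL3L, the paralogue of RPL3 known from striated muscle, passed with only 2 to 37 counts per library, and the other 35 had at least 192 counts in every library. The region labels were checked with markers. Those of cortical glutamatergic neurons summed to 1000 CPM (counts scaled to library size) in room air mPFC (696 to 1375 over 6 libraries), against 9.41 in NTS, 60.4 in VRC and 11.5 in RTN. Hindbrain HOX genes summed to 287 CPM in NTS, 92.9 in VRC and 10.7 in RTN, and to 0.0617 in mPFC, where HOXB4 and HOXB5 were at 0. A few libraries stood apart in the members as a whole, namely replicate 5 of mild mPFC (low), replicate 1 of room air NTS (high) and replicate 1 of all 3 VRC groups (high). Results within regions and between pairs of regions that rest on them are given with and without them. The test of whether responses differ among regions was fitted with all libraries only.

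Per length of gene model, the members differed widely in abundance. In RPKM (read density per gene length and library size, as deposited), RPL15, a large subunit protein, was the highest in room air at 476 ± 35.1 (SD, n = 24 libraries). It was followed by RPL8 at 426 ± 74.6 RPKM and RPL18 at 339 ± 47.9, both of the large subunit. Then came RPS27A, which is made as a fusion with ubiquitin, at 329 ± 81.0 RPKM, and RPS14 of the small subunit at 327 ± 68.5. Since the 24 libraries span 4 regions, these spreads hold the differences between regions as well. At the other end stood RPS12 at 58.3 ± 19.3 RPKM, RPL26L1 at 56.0 ± 7.11 and RPS4X, in mammals an X-linked protein of the small subunit, at 42.4 ± 7.37. RPL3L was at 0.534 RPKM (0.254 to 1.02), and RPL10L was at 0. Without these paralogues of RPL3 and RPL10 the highest member exceeded the lowest 11.2-fold.

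**Figure D1:**
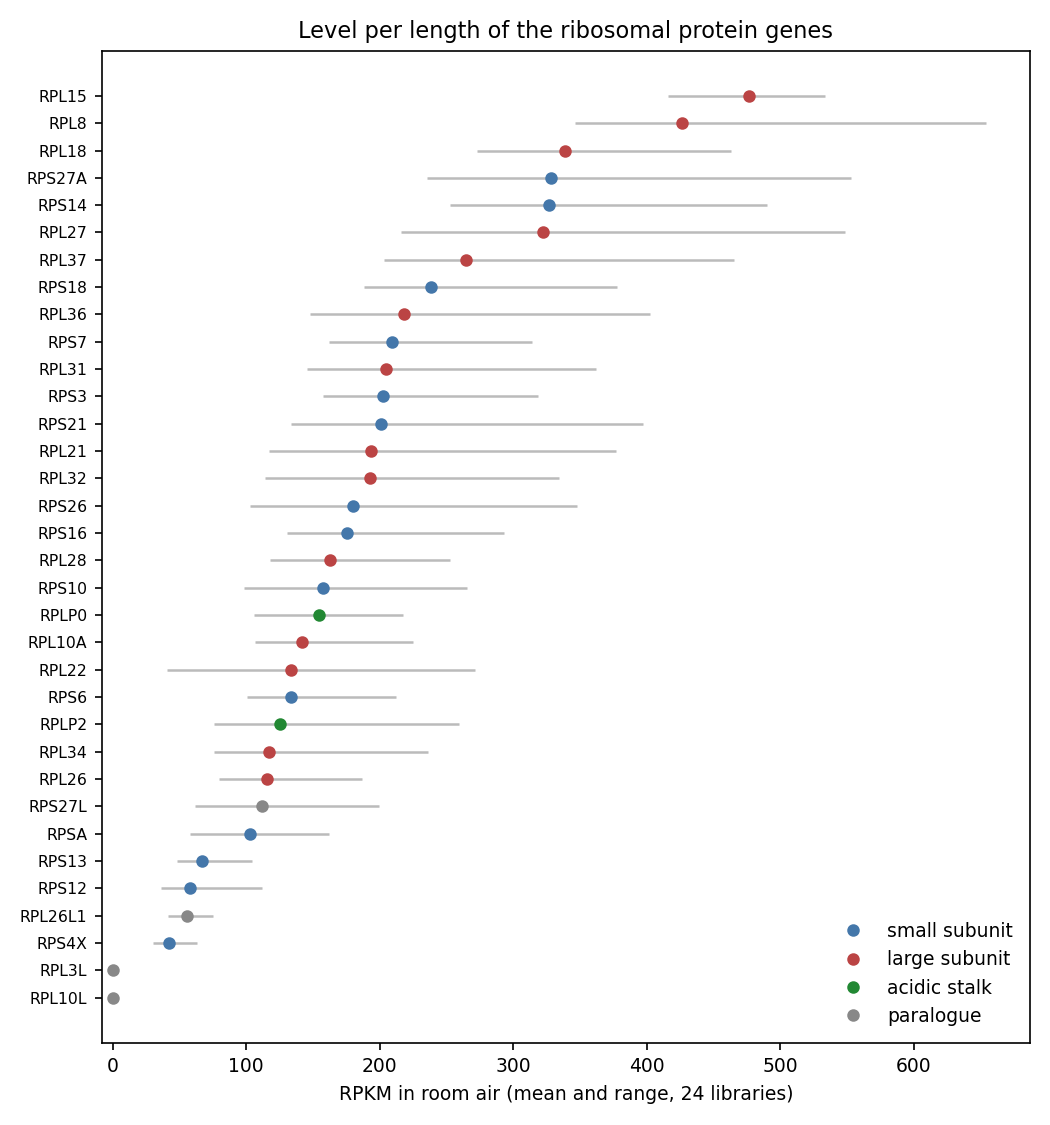
Level of 34 of the 37 ribosomal protein genes in RPKM (x axis), with the mean as a point coloured by subunit and a line from the lowest to the highest of the 24 room air libraries. RPL15 leads at 476 RPKM with a narrow range (416 to 533), RPL22 has a wide range (41.0 to 271), and RPL3L and RPL10L lie near 0.

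Taken as a sum, the 37 genes gave less than 1% of each library. In room air their share of counts was 0.339 ± 0.027% in mPFC (SD, n = 6), 0.383 ± 0.096% in NTS, 0.418 ± 0.087% in VRC and 0.373 ± 0.047% in RTN. In RTN the share ran from 0.362 to 0.402 to 0.437% (lowest, median and highest) in mild hypercapnia and from 0.300 to 0.326 to 0.359% in moderate, so every moderate library lay below every mild one, and 4 of the 6 also lay below every room air library. In NTS it was 0.313, 0.358 and 0.573% in room air, 0.328, 0.338 and 0.379% in mild and 0.254, 0.304 and 0.341% in moderate hypercapnia. Of the moderate NTS libraries 5 of 6 lay below every room air library. In mPFC it was 0.312, 0.327 and 0.373% in room air, 0.199, 0.405 and 0.452% in mild and 0.308, 0.364 and 0.528% in moderate hypercapnia. In mild mPFC 5 of 6 libraries exceeded every room air library, while replicate 5, at 0.199%, lay below all of them. In VRC the ranges of all 3 conditions overlapped, from 0.359 to 0.584% in room air, 0.415 to 0.680% in mild and 0.328 to 0.521% in moderate hypercapnia, and replicate 1 was the highest of its group each time. In bulk tissue, fewer cells rich in ribosomes and less ribosomal protein RNA per cell cannot be told apart.

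**Figure D2:**
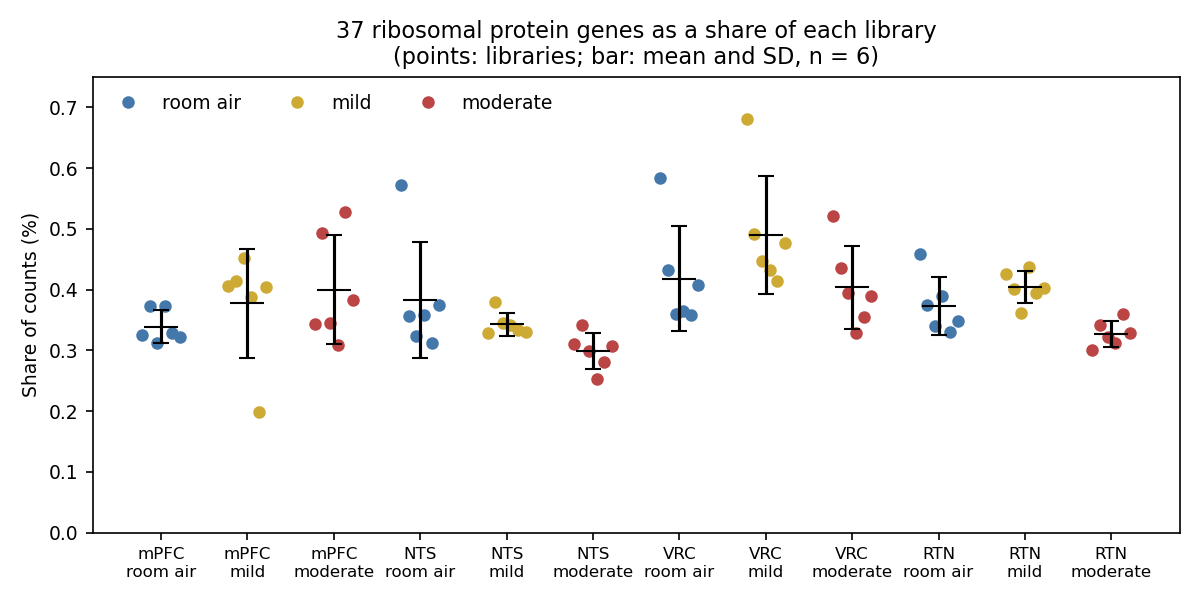
Share of counts taken by the 37 ribosomal protein genes (y axis, percent) in each library by region and condition, with the mean and SD of 6 libraries as bars. The 6 moderate RTN libraries sit between 0.300 and 0.359%, all below the mild ones, and single libraries stand apart in mild mPFC (0.199%), room air NTS (0.573%) and room air and mild VRC (0.584 and 0.680%).

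The members moved together from library to library. In 27 of the 72 libraries at least 32 of the 36 tested members lay on the same side of their group median, and in 46 libraries at least 27 did (both limits were chosen after the values were seen). In replicate 5 of mild mPFC 35 members lay below the group median, with a median deviation of -1.18 on the log2 scale, and in replicate 1 of room air NTS the median deviation was 0.82. Expressed relative to the median of the family in the same library, 34 of 35 members (RPL3L left out) varied less within groups: the median SD fell from 0.29 to 0.12 in log2 units. RPL15 was the exception. Its level varied least of all members (SD 0.11), and relative to the family it varied most (SD 0.25). Its mean stayed between 278 and 308 CPM over all 12 groups.

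Other short genes moved with the family. Genes of up to 714 bases that are no members held 8.64% of counts in replicate 5 of mild mPFC, against 11.3 to 12.1% in the other 5 mild libraries. They held 15.6% in replicate 1 of room air NTS and 16.8, 17.2 and 15.9% in replicate 1 of room air, mild and moderate VRC. The library with the highest member share also had the highest share of short genes in 10 of 12 groups, and the lowest coincided in 8 of 12. In all 12 comparisons of conditions and all 6 region pairs below, short genes had a median of the same sign as the members and nearer to 0. Their part in the shifts of the family was not tested. A fit with the short gene share as a covariate, added after the data had been seen, is given beside the results it alters.

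The regions were first compared in room air, where the levels of the members without added CO2 can be read (edgeR quasi-likelihood test, Benjamini-Hochberg adjusted p under 0.05). The room air libraries were fitted as independent, so animals shared between regions were not modelled. Over the 4 regions together 25 of 36 members were called, with 69.2% of all genes. Most members stood lowest in mPFC and highest in VRC: 33 of 36 had their highest mean in VRC and 32 their lowest in mPFC. Against mPFC, 29 members were higher and 1 lower in VRC (30 of 36 called, with 60.3% of all genes called), 18 higher and 1 lower in RTN (19 called, with 54.8%), and 9 higher and 1 lower in NTS (10 called, with 48.3%). Their median log2 differences were 0.48 in VRC, 0.39 in RTN and 0.29 in NTS, against medians over all genes of -0.01, 0.02 and 0.02. In this fit the counts of called members in RTN and NTS are thus at or below the share of all genes, while the direction was uneven. For RTN against mPFC limma with quality weights called 27 of 36 (59.4% of all genes). Leaving out replicate 1 of every room air group gave 25 (55.9%). Groups did not overlap, with every library above mPFC, for 23 members in VRC, 13 in RTN and 3 in NTS (18.6, 18 and 10.6% of all genes). Within the brainstem 5 members were higher in VRC than in NTS (33% of all genes called) and 1 in RTN than in NTS (21.6%). Between RTN and VRC edgeR called 0 members (14.7% of all genes called), and 2 had an unadjusted p under 0.05. With relative log expression factors edgeR gave 3 at such a p (29.2% of all genes). DESeq2 also called 0 there, and limma with quality weights called 1 (19.1% of all genes called).

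By role, 14 of the 17 small subunit members were called in VRC against mPFC, all higher (60.3% of all genes called in either direction). RPS26, which lines the exit channel of messenger RNA, stood at 34.7, 41.3 and 49.1 CPM (lowest, median and highest) in mPFC and at 64.2, 75.8 and 134 CPM in VRC, with no overlap (log2 0.96 ± 0.21 SE, edgeR adjusted p = 0.000323). In NTS it reached 46.1, 50.2 and 118 CPM, which overlapped with mPFC (log2 0.52 ± 0.21, adjusted p = 0.0413 by edgeR). Its highest value was replicate 1, without which the difference was 0.24 and not called (edgeR adjusted p = 0.231), and limma with quality weights gave 0.23 (adjusted p = 0.176). RPS10, a small subunit protein near the entry of the messenger RNA, was at 47.3, 56.3 and 58.2 CPM in mPFC and at 76.3, 85.5 and 104 CPM in RTN, again without overlap (log2 0.68 ± 0.15, edgeR adjusted p = 0.000382). RPS6, the protein that S6 kinase phosphorylates, had means of 82.5 CPM in mPFC, 107 in NTS, 123 in VRC and 101 in RTN. It was called in NTS (log2 0.35 ± 0.14) and VRC (0.53 ± 0.14), and in RTN it had an edgeR adjusted p of 0.074 (0.30 ± 0.14). RPSA, also known as the laminin receptor, had means of 85.8, 89.2, 106 and 99.8 CPM in the same order and was called in no pair.

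Among the large subunit and stalk proteins, RPLP2, an acidic stalk protein, was at 25.6, 32.1 and 37.4 CPM in mPFC and at 48.7, 56.8 and 99.8 CPM in VRC, where the groups did not overlap (log2 0.95 ± 0.20, edgeR adjusted p = 0.000303). It was also higher in VRC than in NTS, where it was at 29.3, 32.7 and 73.4 CPM with replicate 1 as the highest (log2 0.66 ± 0.20, edgeR adjusted p = 0.014). RPLP0, the stalk protein that anchors it, was called in no pair, with means of 169 CPM in mPFC, 185 in NTS, 211 in VRC and 190 in RTN. RPL8, which lies near the peptidyl transferase centre, was higher in VRC, at 357, 371 and 558 CPM, than in NTS, at 262, 271 and 444 CPM, although the groups overlapped (log2 0.42 ± 0.12, edgeR adjusted p = 0.0105). RPL15 did not pass in any pair, with means of 296, 305, 308 and 307 CPM in mPFC, NTS, VRC and RTN and differences from mPFC of at most 0.06 ± 0.07 on the log2 scale.

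Of the paralogues, RPS27L, a paralogue of RPS27 known as a p53 target, was higher in all 3 brainstem regions than in mPFC. It was at 15.5, 17.6 and 20.8 CPM in mPFC, 23.7, 27.5 and 49.1 in NTS, 30.3, 32.2 and 52.0 in VRC and 24.7, 28.4 and 35.6 in RTN. No brainstem library overlapped with mPFC. The log2 differences were 0.74 ± 0.16, 0.96 ± 0.16 and 0.71 ± 0.16 (edgeR adjusted p = 0.000477, 1.53e-05 and 0.00056). RPL26L1, the paralogue of RPL26, was the 1 member called between RTN and NTS, at 59.4, 61.9 and 70.5 CPM in RTN and 42.6, 50.0 and 66.9 CPM in NTS with overlap (log2 0.31 ± 0.11, edgeR adjusted p = 0.0411), and DESeq2, relative log expression factors and the fit without a filter did not call it (adjusted p = 0.0588, 0.0685 and 0.0699). The call was also lost without any 1 of 10 of these 12 libraries. RPL3L was called in no pair.

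RPL22 (ENSCHIG00000024561, chromosome 16) ran against most of the family. This large subunit protein, known for binding viral RNA and for its role in T cell development, was at 71.6, 92.6 and 98.3 CPM in room air mPFC, at 15.5, 32.6 and 61.2 in NTS, at 33.7, 37.5 and 70.2 in VRC and at 32.3, 41.8 and 44.4 in RTN. Every mPFC library exceeded every brainstem library. The log2 differences from mPFC were -1.37 ± 0.22 in NTS, -1.06 ± 0.22 in VRC and -1.16 ± 0.22 in RTN (edgeR adjusted p = 1.21e-05, 0.000164 and 7.3e-05), and it was the only member called lower than mPFC in each of the 3 pairs. Between brainstem regions it was not called. The order was the same after CO2, with means of 109 CPM in mPFC against 29.7 to 54.1 in the brainstem regions in mild hypercapnia, and 95.4 CPM against 26.3 to 40.7 in moderate (region pairs were tested in room air only). Relative to the median of the family in the same library, RPL22 was 1.58 log2 units higher in mPFC than in the brainstem regions. RPS14 followed at 0.59 and RPL15 at 0.32, RPS27L (-0.42), RPS26 (-0.32) and RPS10 (-0.27) lay on the other side, and 29 of 35 members were within 0.25. The log2 differences of RPS14 from mPFC were also negative, at -0.27 ± 0.15 in NTS, -0.14 ± 0.15 in VRC and -0.24 ± 0.15 in RTN. RPS14 was not called in these pairs. RPL22L1, the paralogue of RPL22, was not matched by symbol and was not analysed here.

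**Figure D3:**
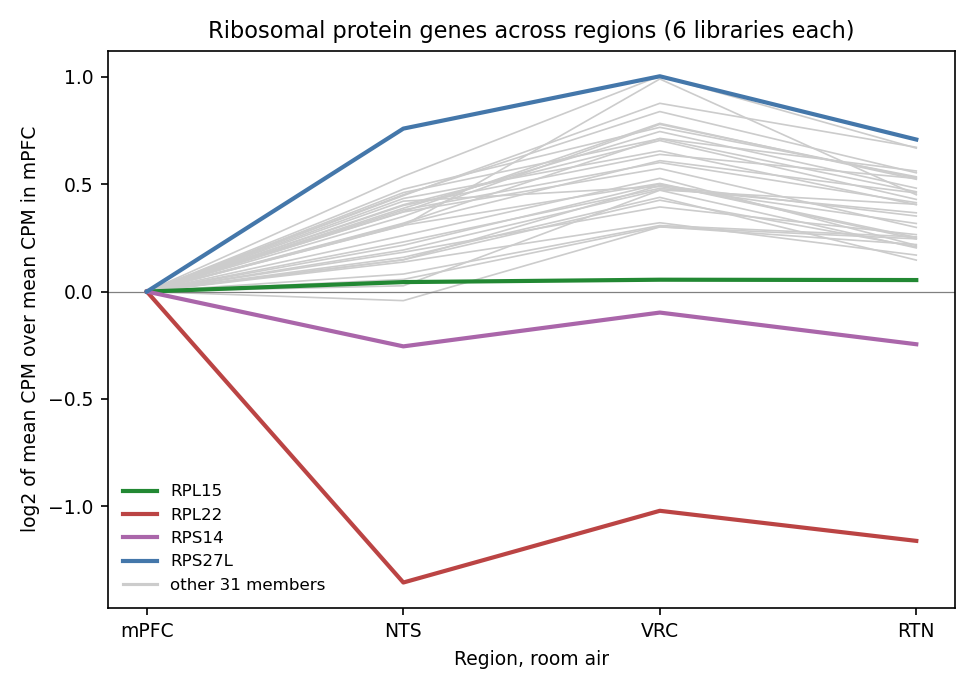
Mean CPM of 35 ribosomal protein genes in each region (x axis) in room air as the log2 ratio to mPFC (y axis), 6 libraries per region, with RPL22, RPL15, RPS14 and RPS27L coloured. Most lines run from mPFC up to a peak in VRC, RPL15 stays near 0, and RPL22 drops by over 1 log2 unit in each brainstem region.

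Single libraries and the short gene share bear on these regional counts. Without replicate 1 of room air NTS, 31 members were called between VRC and NTS in place of 5, 7 between RTN and NTS in place of 1 and 4 between NTS and mPFC in place of 10 (41.8, 29.6 and 46.7% of all genes called in that fit). The median of NTS against mPFC was then 0.10 in place of 0.29, and limma with quality weights gave 0.13. Without replicate 1 of room air VRC 1 was called between VRC and NTS (28.7% of all genes), with a median of 0.09 in place of 0.26, and RPLP2 was not called there (0.49, edgeR adjusted p = 0.0573). Between VRC and mPFC 23 were then called in place of 30, with a median of 0.35 in place of 0.48. With every library kept, 60.3% of all genes were called in that pair. Without replicate 1 of room air RTN 8 were called between RTN and mPFC (52.4% of all genes), and without replicate 6 of room air mPFC 11 were called there and 4 between NTS and mPFC (51.8 and 44.5%). With the short gene share as a covariate, the medians against mPFC were -0.17 in VRC, -0.057 in RTN and -0.088 in NTS, with 6, 9 and 8 members called (40.7, 47.2 and 45.2% of all genes). In mPFC that share was 10.3 to 10.9% of counts, below every VRC (12.6 to 16.8%) and RTN library (11.7 to 13.6%). In NTS it was 10.5 to 15.6%. Region and short gene share therefore cannot be told apart in VRC and RTN against mPFC. In that fit RPS26 was not called in VRC (log2 -0.0083, edgeR adjusted p = 0.969) or in NTS (-0.0069, adjusted p = 0.964), RPS27L was not called in VRC (0.22, adjusted p = 0.13), and neither RPLP2 (0.20) nor RPL8 (0.13) was called between VRC and NTS. The difference of RPL22 was larger in that fit, at -1.92 in NTS, -2.08 in VRC and -1.76 in RTN. Cell makeup differed too: the oligodendrocyte markers summed to 3461 CPM in room air mPFC, 15165 in NTS, 41355 in VRC and 24261 in RTN, and the part of cell makeup in the members' differences was not tested.

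The effect of CO2 was asked within each region, where both hypercapnia groups were compared with the same room air libraries and moderate with mild. No member was called in any of the 12 comparisons by edgeR at an adjusted p under 0.05, where 0% of all genes were called in 11 comparisons and 0.00649% in NTS after moderate hypercapnia. Limma with quality weights also called 0 members in all 12, and DESeq2 called 16 in RTN between moderate and mild hypercapnia and 0 in the other 11. The members nevertheless lay to 1 side in most comparisons, and the counts below are at an unadjusted p under 0.05.

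In RTN, a chemosensory region of the ventral brainstem, the members were lower in moderate than in mild hypercapnia. All 36 had a negative log2 difference, with a median of -0.34 against 0.01 over all genes, and 32 had an unadjusted p under 0.05 by edgeR (10.6% of all genes). For 13 members every moderate library lay below every mild one (0.736% of all genes), among them RPS7, RPS10, RPS26, RPS4X, RPL31, RPL37 and RPS27L. The 16 members that DESeq2 called stand beside 0.878% of all genes called by it. Without each library in turn the median ran from -0.37 to -0.31, with 31 to 33 members at an unadjusted p under 0.05.

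RPS7 (ENSCHIG00000026929, chromosome 8), a small subunit protein that also binds the p53 regulator MDM2, was at 152, 171 and 198 CPM in mild and at 129, 137 and 141 CPM in moderate RTN. Room air libraries, at 133, 140 and 176 CPM, reached into both ranges. The difference between moderate and mild was -0.36 ± 0.07 on the log2 scale (edgeR adjusted p = 0.175). RPS10 (ENSCHIG00000026089, chromosome 23) was at 90.5, 97.9 and 106 CPM in mild and at 71.3, 78.8 and 81.9 CPM in moderate hypercapnia, with room air at 76.3, 85.5 and 104 (log2 -0.34 ± 0.07, edgeR adjusted p = 0.175). Mild and moderate libraries of both genes did not overlap, and each group overlapped with room air.

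RPL31 (ENSCHIG00000023850, chromosome 11), which lies by the exit of the peptide tunnel, was at 81.9, 90.9 and 96.9 CPM in mild and at 64.9, 66.2 and 69.0 CPM in moderate RTN (log2 -0.44 ± 0.10, edgeR adjusted p = 0.188). RPL37, also of the large subunit, was at 71.2, 89.6 and 101 CPM and at 55.7, 66.0 and 67.2 CPM (log2 -0.48 ± 0.11, edgeR adjusted p = 0.188). The moderate values of RPL31 were the tightest of these, with an SD of 1.61 CPM. RPL15 did not share the shift: it was at 269, 300 and 330 CPM in mild and at 266, 304 and 315 CPM in moderate RTN (log2 -0.0002 ± 0.06). Over the 12 comparisons of conditions it lay within 0.05 of 0 in 10, a limit chosen after its values were seen.

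**Figure D4:**
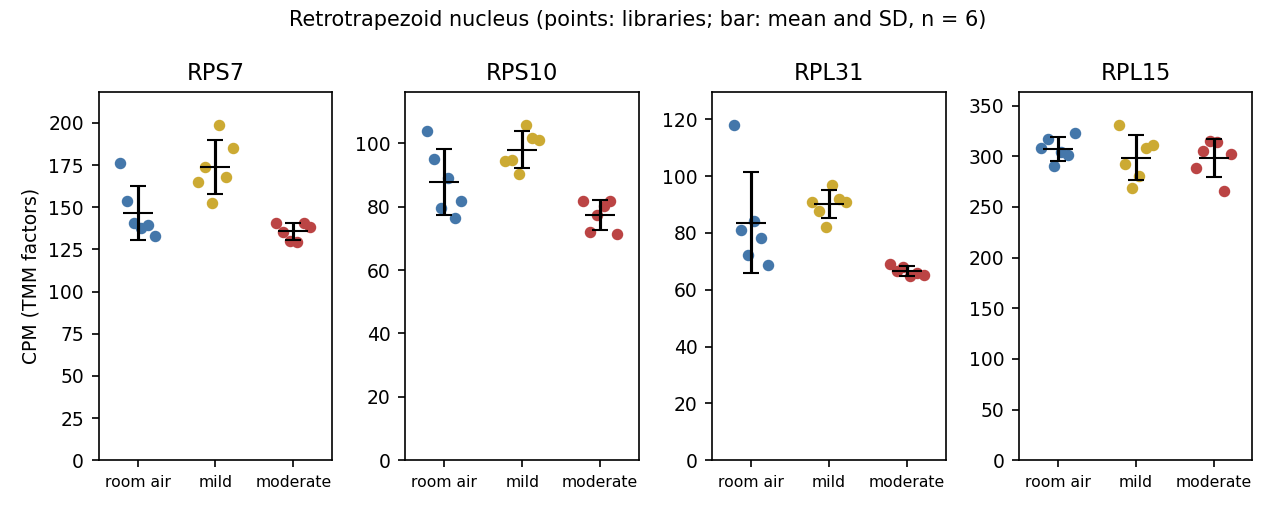
CPM of RPS7, RPS10, RPL31 and RPL15 (y axes, from 0) in each RTN library by condition, with mean and SD of 6 libraries. For the first 3 genes every moderate library lies below every mild one (RPL31 64.9 to 69.0 against 81.9 to 96.9 CPM), while the 3 groups of RPL15 overlap.

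Against room air, RTN members were higher after mild and lower after moderate hypercapnia, in a pair of comparisons that share the room air libraries. After mild hypercapnia 34 of 36 were positive, with a median of 0.14 and 7 members at an unadjusted p under 0.05 by edgeR (6.59% of all genes). RPS7 was the smallest in p, with means of 174 CPM in mild and 147 CPM in room air (log2 0.24 ± 0.07, edgeR adjusted p = 0.67), followed by RPL27 of the large subunit (0.22 ± 0.08). After moderate hypercapnia 0 of 36 were positive, with a median of -0.20 and 15 members at an unadjusted p under 0.05 (7.38% of all genes). RPL31 was at 66.6 ± 1.61 CPM against 83.6 ± 17.7 in room air (SD, n = 6; log2 -0.33 ± 0.10, edgeR adjusted p = 0.51), and RPL37 had a log2 difference of -0.31 ± 0.11. Without replicate 1 of room air RTN the median after moderate hypercapnia was -0.12 with 3 members at an unadjusted p under 0.05 (6.4% of all genes), and after mild it was 0.21 with 24 (8.05%).

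Between moderate and mild hypercapnia the short genes had a median of -0.09, and with their share as a covariate the median of the members was -0.12, with 3 at an unadjusted p under 0.05 by edgeR (9.42% of all genes). Shorter members moved more, with a median of -0.37 in the 18 shortest against -0.27 in the 18 longest. Microglia markers were lower in moderate than in mild hypercapnia in 6 of 6 (median -0.27), summing to 392 CPM in mild (332 to 463) and 324 in moderate (236 to 521), and leukocyte markers in 5 of 5 (median -0.64). In room air RTN the microglia markers summed to 296 CPM (210 to 458). None of these markers was called by edgeR, and their part in the members' shift was not tested.

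In NTS, where afferents of lung and carotid body end, the members were lower after moderate hypercapnia. Here 35 of 36 were negative against room air, the exception being RPL3L, with a median of -0.40 against -0.0045 over all genes. By edgeR 26 had an unadjusted p under 0.05 (13.4% of all genes). RPS12, a small subunit protein, was at 29.3, 33.7 and 70.4 CPM in room air and at 18.5, 24.4 and 31.1 CPM in moderate hypercapnia (log2 -0.70 ± 0.18, edgeR adjusted p = 0.33). All 6 moderate libraries lay below the room air median, and the groups overlapped. RPS27L was at 23.7, 27.5 and 49.1 CPM in room air and at 17.2, 20.5 and 24.6 CPM in moderate hypercapnia (log2 -0.53 ± 0.15, edgeR adjusted p = 0.33), also with overlap. The highest room air value of both came from replicate 1, and without that library the median of the members was -0.20, with 18 at an unadjusted p under 0.05 (6.99% of all genes).

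After mild hypercapnia 36 of 36 members were below room air in NTS, with a median of -0.16, and edgeR gave 0 at an unadjusted p under 0.05 (4.66% of all genes). RPL15 had the smallest p, with a log2 difference of -0.14 ± 0.07 (edgeR adjusted p = 0.85), before RPS27L at -0.24 ± 0.15. Without replicate 1 of room air the median turned to 0.02, with 22 positive, and by limma with quality weights it was -0.045. Moderate against mild had 34 of 36 members negative, a median of -0.22 and 2 members at an unadjusted p under 0.05 (4.02% of all genes), RPS12 (-0.43 ± 0.18) and RPS14 (-0.28 ± 0.13; edgeR adjusted p = 1.0). Room air libraries enter this fit through the estimate of the spread. Fitted on the mild and moderate libraries alone, 22 members had an unadjusted p under 0.05 (5.8% of all genes), and limma with quality weights gave 19 (8.17%). For 5 members, among them RPS14 and RPL31, every moderate library lay below every mild one (0.285% of all genes). Oligodendrocyte markers were lower after moderate hypercapnia in 5 of 5, summing to 15165 CPM in room air (6665 to 32633) and 7700 in moderate (3434 to 13191), and short genes had a median of -0.11. Microglia markers summed to 441 CPM in room air, 501 in mild and 461 in moderate hypercapnia, and neuron markers to 6420, 9271 and 8936. The part of these cells in the members' shift was not tested. With the short gene share as a covariate the median of the members against room air was -0.080, with 3 at an unadjusted p under 0.05 (4.42% of all genes).

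In VRC, which holds the neurons of the breathing rhythm, the members were higher in mild hypercapnia than in either other group. Against room air 34 of 36 were positive, with a median of 0.27, and against mild 35 of 36 were lower in moderate, with a median of -0.29. By edgeR 0 members were higher in mild hypercapnia than in room air at an unadjusted p under 0.05, and 1, RPL3L, was lower (6.23% of all genes in either direction). Between moderate and mild 3 members, all lower, had such a p (15.5% of all genes), against 25 by limma with quality weights (20.3%). RPL10A, of the large subunit, was at 89.0, 97.2 and 143 CPM in room air and at 100, 121 and 212 CPM in mild hypercapnia, with overlap (log2 0.35 ± 0.17, edgeR adjusted p = 0.79). RPS27L was at 34.1, 37.8 and 71.7 CPM in mild and at 24.5, 29.4 and 44.9 CPM in moderate hypercapnia (log2 -0.50 ± 0.19, edgeR adjusted p = 0.23), with overlap, and RPS12 had a difference of -0.56 ± 0.25. RPL3L was lower in mild hypercapnia than in room air (-1.01 ± 0.46), at 0.0943 to 0.538 CPM, a few counts per library. Between moderate and room air VRC the members were split, with 11 of 36 positive and a median of -0.04, and edgeR gave 0 members at an unadjusted p under 0.05 (5.67% of all genes). RPSA (-0.26 ± 0.18) and RPS27L (-0.17 ± 0.19) had the smallest p (edgeR adjusted p = 0.87 and 0.93).

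Replicate 1 was the highest VRC library of each condition, and these medians moved when it was left out of a single group. Without replicate 1 of mild VRC the median of mild against room air was 0.10, and without replicate 1 of room air it was 0.41, with 28 members at an unadjusted p under 0.05 (9.31% of all genes). Between moderate and mild it was -0.14 without replicate 1 of mild, and -0.42, with 28 such members (18.9% of all genes), without replicate 1 of moderate. Leaving out replicate 1 of all 3 conditions gave 0.25 for mild against room air and -0.27 for moderate against mild, with 19 and 26 members at an unadjusted p under 0.05 (9.2 and 17.2% of all genes). Without single libraries the median of moderate against room air ran from -0.16 to 0.10. Microglia markers were higher in mild hypercapnia than in room air in 6 of 6 (median 0.37), as were leukocyte markers in 5 of 5 (median 1.00). Their part in the members' values was not tested.

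In mPFC the members were higher after both levels of CO2, again with shared room air libraries. After mild hypercapnia 34 of 36 were positive, with a median of 0.20, and 1 had an unadjusted p under 0.05 by edgeR (3.45% of all genes). That was RPL3L (0.76 ± 0.35), at 0.44 to 1.60 CPM, before RPL27 at 90.2, 98.8 and 112 CPM in room air and 59.2, 137 and 169 CPM in mild hypercapnia (log2 0.36 ± 0.18, edgeR adjusted p = 1.0). RPL27 was above every room air value in most mild libraries and below all of them in its lowest, replicate 5. Without that library the median was 0.35, with 27 members at an unadjusted p under 0.05 (6.88% of all genes), and limma with quality weights gave 9 (6.99%). After moderate hypercapnia 36 of 36 were positive, with a median of 0.28, and 0 had an unadjusted p under 0.05 (2.1% of all genes). RPL27 was at 107, 114 and 174 CPM in moderate hypercapnia (log2 0.34 ± 0.18, edgeR adjusted p = 1.0). The fit of these libraries without the mild group gave 8 members at an unadjusted p under 0.05 (2.73% of all genes). The moderate libraries of RPL27 were more spread than room air and overlapped with it. Without replicate 5 of moderate mPFC the median was 0.17.

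Moderate and mild mPFC libraries had a median difference of 0.07 with 28 of 36 members positive, led by RPLP0 (0.29 ± 0.19) and RPL8 (0.20 ± 0.14; edgeR adjusted p = 0.95), and 0 at an unadjusted p under 0.05 (4.71% of all genes). This median turned to -0.06 without replicate 5 of mild and to -0.04 without replicate 5 of moderate, and it was -0.0024 without replicate 2 of moderate and -0.088 by limma with quality weights. With the short gene share as a covariate the mPFC medians against room air were -0.080 after mild and 0.053 after moderate hypercapnia. Microglia markers were higher after moderate hypercapnia in 6 of 6 (median 0.37). They summed to 326 CPM in room air (233 to 519), 335 in mild (256 to 591) and 404 in moderate hypercapnia (299 to 678). The part of these markers in the mPFC medians was not tested.

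**Figure D5:**
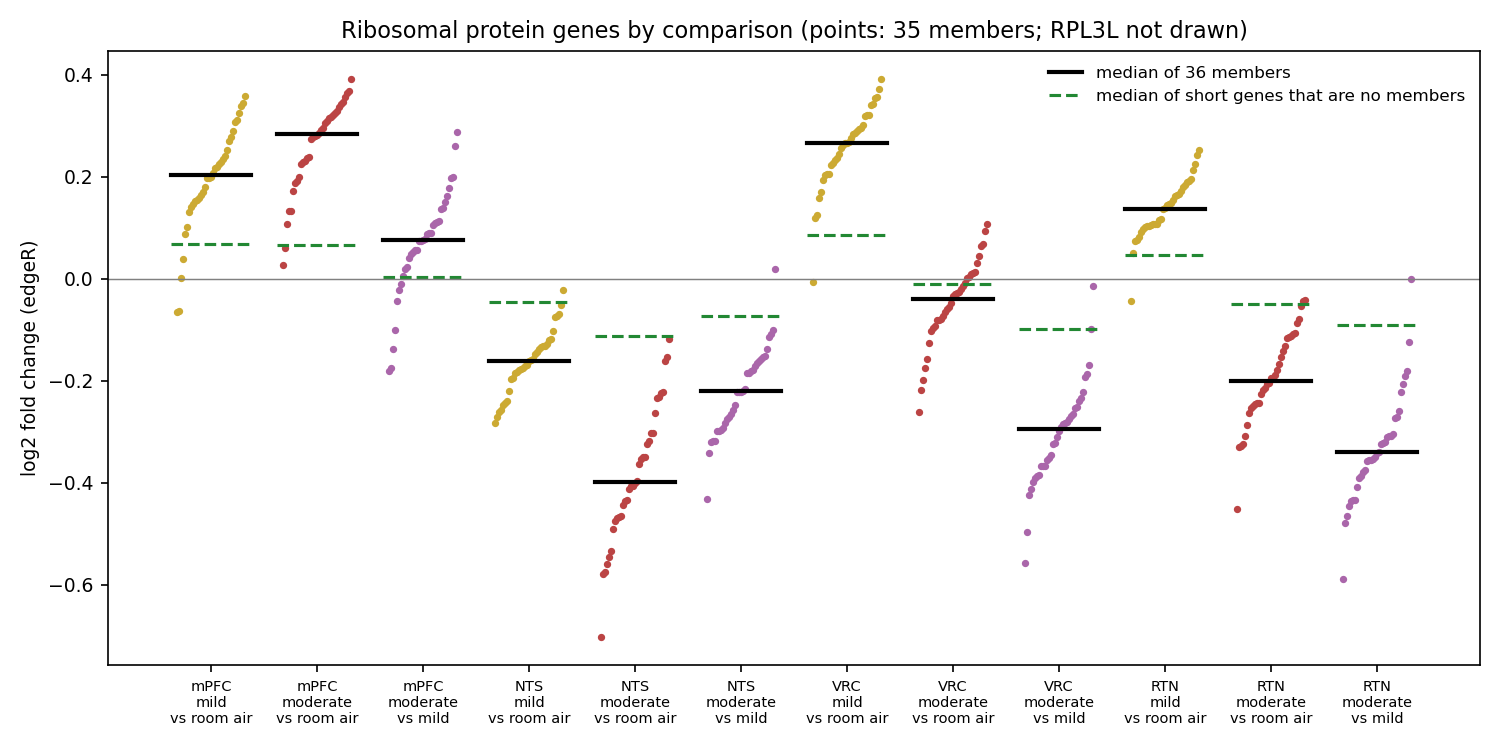
Log2 difference (y axis, edgeR) of 35 ribosomal protein genes in each comparison of conditions, with the median of all 36 tested members as a black line and that of short genes that are no members as a dashed green line. Most points lie above 0 in mPFC against room air and below 0 in NTS and in moderate RTN (median -0.34 against mild), and the short genes lie nearer to 0 throughout.

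Whether the response to CO2 differed among regions was tested as an interaction over all 72 libraries, which were taken as independent. By edgeR 0 members were called for either level (adjusted p = 1.0 throughout), and 0 of all 16372 genes. At an unadjusted p under 0.05, 16 of 36 members differed among regions in their response to moderate hypercapnia (3.83% of all genes) and 1 in that to mild (2.4%). RPS27L had the smallest p for moderate (0.00825), with log2 differences from room air of 0.36 ± 0.21 in mPFC, -0.53 ± 0.15 in NTS, -0.17 ± 0.19 in VRC and -0.25 ± 0.10 in RTN. RPS12 followed (unadjusted p = 0.0125, edgeR adjusted p = 1.0), at 0.35 ± 0.23, -0.70 ± 0.18, -0.22 ± 0.25 and -0.45 ± 0.16 in the same order. Both were thus above room air in mPFC alone. For mild hypercapnia the member was RPL3L (unadjusted p = 0.022, edgeR adjusted p = 1.0), and RPS27L came next (0.104). The region with the lowest member means moved accordingly, from mPFC for 32 of 36 members in room air to NTS for 21 in mild and 35 in moderate hypercapnia, while VRC was the highest for 33, 33 and 32.

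By role, the subunits were alike in sign after moderate hypercapnia in mPFC, NTS and RTN. Of the 17 small subunit members all were positive in mPFC after moderate hypercapnia (median 0.28) and negative in NTS (-0.41) and RTN (-0.19). RPS6 had log2 differences from room air after moderate hypercapnia of 0.23 ± 0.17 in mPFC, -0.32 ± 0.13 in NTS, -0.10 ± 0.16 in VRC and -0.17 ± 0.09 in RTN. RPSA had 0.13 ± 0.26, -0.47 ± 0.17, -0.26 ± 0.18 and -0.33 ± 0.13 in the same order. RPS27A had 0.29 ± 0.19, -0.41 ± 0.15, -0.01 ± 0.19 and -0.21 ± 0.10, and RPS4X 0.23 ± 0.16, -0.23 ± 0.12, -0.03 ± 0.18 and -0.11 ± 0.09. The stalk proteins RPLP0 (0.22 ± 0.19, -0.23 ± 0.12, -0.10 ± 0.13 and -0.05 ± 0.10) and RPLP2 (0.36 ± 0.24, -0.47 ± 0.19, -0.06 ± 0.21 and -0.24 ± 0.13) were signed alike. RPL22, with its own regional pattern, had 0.13 ± 0.17, -0.40 ± 0.22, -0.09 ± 0.22 and -0.25 ± 0.11. RPS12 was the most negative member in 5 of the 12 comparisons.

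A shift of equal size in a paralogue and its parent cancels in their ratio, and 1 of 9 listed pairs had rows for both. A shift that differs with length does not cancel, and the gene models of RPL26L1 and RPL26 have 1042 and 438 bases. The ratio was taken in CPM, which is not scaled to gene length. Per length RPL26 was the higher, at 115 RPKM against 56.0 for RPL26L1 in room air. In CPM RPL26L1 exceeded RPL26 by 0.35 ± 0.22 log2 units in room air mPFC (SD, n = 6), 0.12 ± 0.22 in NTS, 0.19 ± 0.24 in VRC and 0.24 ± 0.23 in RTN. Its largest difference among 18 comparisons was that between moderate and mild mPFC (-0.27), and the smallest p was that of NTS against mPFC (-0.24, two-sided exact permutation p = 0.0931, adjusted 0.616). No comparison passed after adjustment over the 18, where the smallest p the design allows is 0.00216.

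RACK1, a scaffold on the small subunit that the name rule does not take in, had log2 differences of -0.32 ± 0.08 between moderate and mild RTN (edgeR adjusted p = 0.189), 0.23 ± 0.08 in mild RTN and 0.32 ± 0.15 in mild VRC against room air, next to member medians of -0.34, 0.14 and 0.27. For the other lists of protein synthesis the medians are given as ranges, and the difference between lists was not tested. Mitochondrial ribosomal proteins, which serve the separate ribosome of that organelle, had 57 genes tested and medians from -0.11 (RTN, moderate against mild, 13 of 57 positive) to 0.10 (RTN, mild against room air, 48 of 57 positive) over the 12 comparisons. Of them MRPS14 had a log2 difference of -0.37 ± 0.08 between moderate and mild RTN (edgeR adjusted p = 0.175). For the 24 translation factors the medians ran from -0.03 to 0.07, for 46 genes of ribosome biogenesis from -0.02 to 0.03, and for 30 genes of mTORC1 and LARP1 from -0.07 to 0.09. EEF1B2, a translation factor subunit, had a log2 difference of -0.27 ± 0.07 between moderate and mild RTN (edgeR adjusted p = 0.189). edgeR called 0 genes of these lists in all 12 comparisons. Between regions in room air the mitochondrial ribosomal proteins had 29 genes higher and 4 lower in VRC than in mPFC (median 0.30). That is 57.9% of 57 genes called, next to 83.3% of the 36 members and 60.3% of all genes.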

How the data were processed

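Gene counts and RPKM values of 72 libraries were used as deposited. Per the submitters' processing notes the authors used FastQC, Trimmomatic, STAR, featureCounts and edgeR, without versions. Build and annotation were not given in the sources used here. Per the labels' protocols, libraries were made from total RNA with the SMARTer Universal Low Input RNA Kit. The authors' RPKM values were used for levels between genes, and the deposited gene length, another column of the table, for the length checks. CPM was computed from the deposited counts with TMM factors over all libraries.

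Tests used edgeR 4.0.16 (R 4.3.3) with filterByExpr at a minimum count of 10, TMM factors, the quasi-likelihood test and Benjamini-Hochberg adjustment over all genes tested, with 0.05 as the threshold. Each region was fitted with its 3 conditions, region pairs in room air libraries, and the interaction over all libraries. SE is the log2 difference divided by the root of F. DESeq2 1.42.0 and limma 3.58.1 served as alternatives. Ratios of paralogues used log2 of CPM with a pseudocount of 0.5 and an exact permutation test. Tested on simulated data for mild against room air, the fit recovered 31.3, 26.9, 17.9 and 55.2% of genes changed 1.5-fold, and 71.6, 73.1, 73.1 and 85.1% of those changed 2-fold (mPFC, NTS, VRC and RTN).

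The members and gene lists were chosen with earlier results of these data known. Named genes are, in each comparison of conditions, the members called or else the 2 of smallest p; in region pairs the 2 largest called changes each way; the 2 of smallest p in each interaction; the 5 highest and lowest by RPKM; and a list by role. Some members are not reported here. RPL15 and RPS14 in other places, and the genes whose groups did not overlap, were named after their values were seen. So were the covariate, the joint omission of replicate 1 and the split by member length.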

Additional observations from a re-analysis of the deposited data

Results flagged for a closer look

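Among 36 sets of 6 libraries (the family's share of counts and the CPM of RPL22 and RPL15), 6 held a library whose gap to its neighbour was large against the range of its group, and chance gives about 1 in 20. The share of counts of the ribosomal protein genes was 0.199% in replicate 5 of mild mPFC, against 0.389 to 0.452% in the other 5 libraries. In NTS it was 0.573% in replicate 1 of room air (others 0.313 to 0.375%) and 0.379% in replicate 2 of mild hypercapnia (others 0.328 to 0.345%). In VRC it was 0.584% in replicate 1 of room air (others 0.359 to 0.432%) and 0.680% in replicate 1 of mild hypercapnia (others 0.415 to 0.491%). RPL15, otherwise the steadiest member, was at 354 CPM in replicate 1 of room air VRC, against 287 to 310 CPM in the others.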

How the results depend on the processing

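Under DESeq2, relative log expression factors, TMM factors without the members, no filter, limma with quality weights and the fit of each pair of groups alone, 0 members were called in the comparisons of conditions, except that DESeq2 called 16 in RTN between moderate and mild hypercapnia. Region pairs depended more on the processing. Between RTN and NTS, where 1 member was called, DESeq2, relative log expression factors, TMM factors without the members and the fit without a filter each called 0. Limma with quality weights called 11 there, 20 between VRC and NTS and 1 between RTN and VRC (36.8, 42 and 19.1% of all genes). Between RTN and mPFC, where 19 members were called, it called 27 (59.4%). With the replicate number as a block, 16 members were called between NTS and mPFC, 14 between VRC and NTS, 4 between RTN and NTS and 3 between RTN and VRC, with 53.7, 40.1, 28.1 and 21.7% of all genes called. That block gave 27 members called between RTN and mPFC (59.6% of all genes). Deviations from the group means correlated with a median of 0.016 between libraries that share a number across conditions (26 of 72 pairs over 0.1) and of 0.257 across regions within a condition (92 of 108). The labels do not tie numbers to animals and not every pair was over 0.1, so the block was kept as an alternative, and shared animals were not modelled in the region and interaction tests. Under the block 0 members were called in the comparisons of conditions. At an unadjusted p under 0.05 the block gave 32 members in VRC for mild against room air and 32 for moderate against mild (8.87 and 18.2% of all genes), in place of 1 and 3. For the interaction, a block of replicate numbers within each condition gave 23 members for moderate and 1 for mild (7.66 and 4.7% of all genes). That was at the same threshold and in place of 16 and 1, with 0 members called.

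In the fits chosen after seeing the data, the short gene share as a covariate gave medians of 0.053 in mPFC after moderate hypercapnia, -0.080 in NTS after moderate, -0.071 in NTS and -0.12 in RTN between moderate and mild. In room air it gave -0.088, -0.17 and -0.057 for NTS, VRC and RTN against mPFC, -0.11 for VRC against NTS and 0.13 for RTN against VRC. The short gene shares of VRC and RTN did not overlap with that of mPFC, so region and share cannot be told apart there. The members called in that fit were 6 in VRC and 9 in RTN against mPFC, 2 in VRC and 3 in RTN against NTS, and 3 in RTN against VRC. Of all genes 40.7, 47.2, 21, 24.9 and 11.3% were called there, in the same order. RPS26 turned to -0.0069 in NTS and -0.0083 in VRC against mPFC. Leaving out replicate 1 of all room air groups gave 27 members called in VRC and 12 in RTN against NTS and 3 in RTN against VRC (38.9, 30.3 and 17.3% of all genes). For RTN against mPFC it gave 25 (55.9%). The causes were not tested. Without each library in turn, the members called ran from 4 to 13 (NTS against mPFC), 8 to 20 (RTN against mPFC), 1 to 31 (VRC against NTS) and 0 to 7 (RTN against NTS), and were 0 in the comparisons of conditions. For VRC against mPFC the members called ran from 23 to 31 when single libraries were left out. In these region pairs 48.3, 54.8, 33, 21.6 and 60.3% of all genes were called with every library kept, in the same order. With 6 libraries a group, the power for changes of 1.5-fold was limited (recovery is given with the methods).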
